A study of Homo sapiens with 5 samples.

Results

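The 9 human genes that encode the subunits of the Arp2/3 complex were followed through 5 RNA-seq libraries of the fibrosarcoma line HT1080. They were chosen by gene symbol, and all 9 (ACTR2, ACTR3, ARPC1A, ARPC1B, ARPC2, ARPC3, ARPC4, ARPC5 and ARPC5L) were found among the 27189 genes listed. HT1080 cells, an established line from a connective tissue tumour, were embedded for 24 h in gels of type I collagen at 2 mg per ml. The LD library came from untreated cells at low density (10 cells per mm3), and the HD library from untreated cells at high density (50 cells per mm3). The IL-6 and IL-8 libraries came from low-density cells given recombinant IL-6 or recombinant IL-8, and the RM library from low-density cells given both cytokines in a 5:2 ratio. Each condition is a single library, so no spread between cultures could be measured, and every interval and test below covers only the sampling of reads within libraries.

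The Arp2/3 complex starts new actin filaments on the side of existing ones and so builds the branched networks that push the membrane forward in lamellipodia and other protrusions. ARP2 and ARP3, encoded by ACTR2 and ACTR3, resemble actin and together form the start of the new filament. ARPC2 and ARPC4 form the core that holds the complex on the mother filament, and ARPC1, ARPC3 and ARPC5 complete it. ARPC1 exists in the forms ARPC1A and ARPC1B, and ARPC5 in the forms ARPC5 and ARPC5L. The complex is nearly inactive until a nucleation promoting factor of the WASP or WAVE family binds it. The study asked how cell density and the cytokines IL-6 and IL-8 act on the migration of these cells, with this complex as a candidate effector, and the comparison made here is of subunit transcripts in each condition with LD.

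The libraries held between 926376 reads (HD) and 7118545 reads (LD). RNA5-8S5, a ribosomal RNA gene, took 76.88% to 79.59% of the reads in the 4 low-density libraries and 51.46% in HD, which left 449661 reads in HD and 1100967 to 1645539 in the others. HD stood apart from the rest. The Pearson correlation of log2(TPM + 1) over 21163 genes was 0.316 to 0.348 between HD and each other library and 0.89 to 0.937 among the others. TPM is transcripts per 1000000, a level corrected for transcript length. Of 386 olfactory receptor genes, which are silent in most tissues, 240 had a read in HD and 14 to 37 in the low-density libraries, and their 95th percentile was 39.13 TPM in HD and at most 1.197 TPM elsewhere. The mesenchymal markers VIM, FN1, CD44, S100A4, MMP14, PLAUR and THY1 summed to between 2254 and 4182 TPM at low density and to 578.5 TPM in HD. VIM alone made up 3676 of the 4182 TPM in LD and 412.9 of the 578.5 TPM in HD. All 7 markers had reads in LD and HD, and THY1 was at 0 in IL-6, IL-8 and RM. Of the 3 epithelial markers listed, EPCAM and KRT5 were at 0 in all 4 low-density libraries and CDH1 had up to 6 reads there. In HD these epithelial markers had 37 reads, the 5 leukocyte markers 50 and the 2 endothelial markers 48, against 0 to 6 reads for each list at low density. The part of these signals in the HD values below was not tested.

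Because the ARPC1 and ARPC5 positions can each be filled by paralogs, the reads assigned to each paralog matter as much as the total. The coding sequences of the pairs were 71.7% identical for ARPC1A and ARPC1B and 73.8% for ARPC5 and ARPC5L, and the longest identical run was 17 and 12 bases. A read was 50 bases long, and no 50-base word was shared between the members of either pair. The stretches below are the 60 bases around the longest identical run of each pair, 5′ to 3′ along the coding strand, with capitals at the bases that differ. They come from GENCODE 29 transcripts on GRCh38. The ARPC1A stretch joins exons 3 and 4 at chr7:99338237-99344303 (+ strand), the ARPC1B stretch exons 4 and 5 at chr7:99386741-99388049 (+ strand), and they differ at 16 bases.
ARPC1A: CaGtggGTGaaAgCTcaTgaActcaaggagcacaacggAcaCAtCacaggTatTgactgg
ARPC1B: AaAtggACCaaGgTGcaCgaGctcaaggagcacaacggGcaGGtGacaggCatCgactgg
The ARPC5 stretch lies in exon 1 at chr1:183635573-183635632 (− strand) and the ARPC5L stretch in exon 1 at chr9:124869315-124869374 (+ strand), with 13 differing bases.
ARPC5: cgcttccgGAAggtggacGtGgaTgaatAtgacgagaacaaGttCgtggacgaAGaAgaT
ARPC5L: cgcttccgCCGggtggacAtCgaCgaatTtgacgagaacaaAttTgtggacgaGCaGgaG
Other overlaps could still move reads between genes. ARPC1A and ARPC1B shared 56.3% and 28.4% of their 50-base words with other annotated genes, nearly all with AC004922.1, a locus that covers both, and ARPC4 shared 23.2% with ARPC4-TTLL3 and TADA3. ARPC3 shared 8.18% and ACTR2 7.21%, and the share was at most 1.67% for ACTR3, ARPC2, ARPC5 and ARPC5L. Since the strand was not stated to be used in counting, reads of ARPC4 and TADA3 from such words cannot be told apart.

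All 9 subunits were well expressed at low density. In LD, IL-6, IL-8 and RM each had at least 21 reads and lay above the 95th percentile of the olfactory receptor genes. Each ranked there between the 82.4th and the 99.5th percentile of all 27189 genes listed, those without reads included. ARPC2, the core subunit that holds the mother filament, had the highest TPM in each of these 4 libraries, and ACTR2 and ACTR3, the actin-like pair, the lowest. In HD, 4 of 9 subunits had at least 10 reads, and ARPC4, ARPC1A and ARPC2 alone exceeded the olfactory receptor level.

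**Figure D1:**
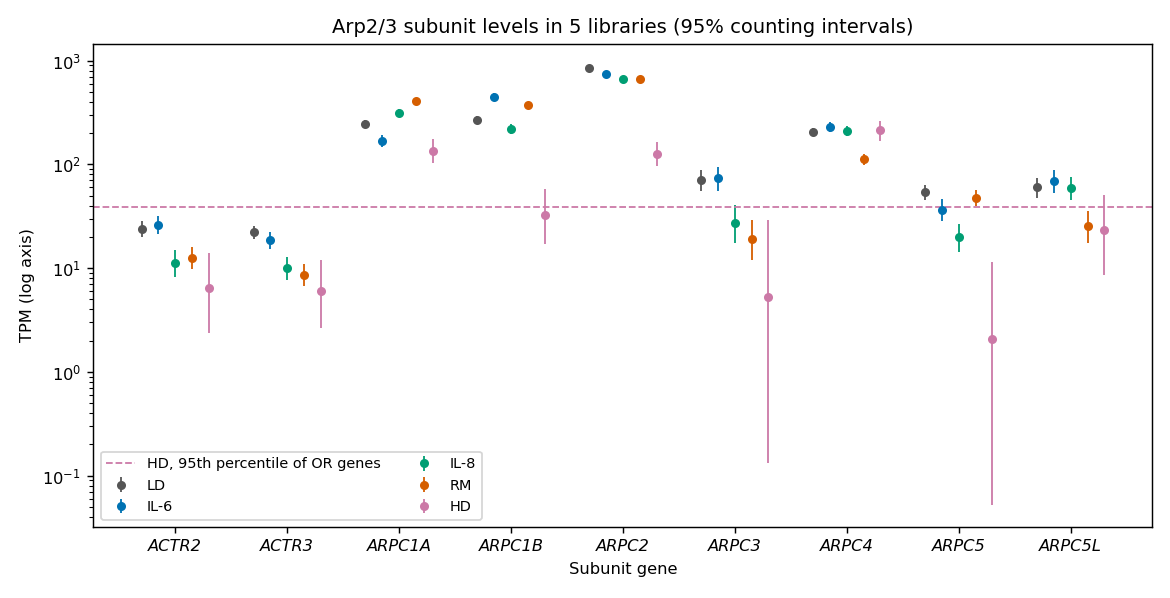
TPM of each Arp2/3 subunit gene (log axis) in the 5 libraries, 1 library per condition, with bars giving 95% exact counting intervals and the dashed line the 95th percentile of olfactory receptor (OR) genes in HD. ARPC2 stands highest at 658.6 to 845.8 TPM at low density, and in HD only ARPC4, ARPC1A and ARPC2 lie above the dashed line at 39.13 TPM.

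ACTR2 had 133 reads (23.96 TPM) in LD, 99 (26.15 TPM) with IL-6, 46 (11.2 TPM) with IL-8, 68 (12.57 TPM) with RM and 6 (6.418 TPM) at HD. ACTR3 had 179 reads (22.04 TPM) in LD, 103 (18.54 TPM) with IL-6, 60 (9.975 TPM) with IL-8, 68 (8.605 TPM) with RM and 8 (6.076 TPM) at HD. As TPM, both actin-like subunits were high in LD and IL-6 and low in IL-8 and RM. Their HD values, from 6 and 8 reads, lay below the olfactory receptor level. The HD counting intervals, 2.355 to 13.97 TPM for ACTR2 and 2.623 to 11.97 TPM for ACTR3, overlapped those in IL-8 and RM. The TPM counting intervals of ACTR2 and ACTR3 overlapped in each library.

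ARPC2 had 1609 reads (845.8 TPM) in LD, 977 (736.0 TPM) with IL-6, 946 (658.6 TPM) with IL-8, 1216 (659.0 TPM) with RM and 55 (126.8 TPM) at HD. ARPC4, its partner in the core, had 421 reads (204.8 TPM) in LD, 332 (229.8 TPM) with IL-6, 331 (211.5 TPM) with IL-8, 247 (112.2 TPM) with RM and 86 (212.1 TPM) at HD. The core pair did not move together. ARPC2 was within a narrow range at low density and far lower in HD, whereas ARPC4 was lowest in RM and in HD had nearly the TPM of LD. The length implied by the ratio of reads to TPM, relative to ARPC2, was 1.08 to 1.09 for ARPC4 in LD and with either cytokine alone, 1.19 with RM and 0.93 at HD, so the TPM and the reads of ARPC4 do not give the same ratio to LD. Only the RM shift was particular to ARPC4. In HD this relative length was lower than in LD for all other subunits too, as for ACTR3 (4.27 in LD, 3.04 in HD) and ARPC1A (1.15 and 0.95).

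ARPC3, which contacts ARP3, had 80 reads (70.25 TPM) in LD, 57 (73.32 TPM) with IL-6, 23 (27.28 TPM) with IL-8, 21 (19.17 TPM) with RM and 1 (5.21 TPM) at HD. Like the actin-like subunits it was high in LD and IL-6 and low in IL-8 and RM, with a wider gap between LD and RM.

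ARPC1A had 538 reads (246.7 TPM) in LD, 253 (168.7 TPM) with IL-6, 503 (310.9 TPM) with IL-8, 858 (407.6 TPM) with RM and 56 (135.5 TPM) at HD. ARPC1B had 553 reads (267.9 TPM) in LD, 636 (448.4 TPM) with IL-6, 339 (219.9 TPM) with IL-8, 744 (372.0 TPM) with RM and 12 (32.81 TPM) at HD. Both forms were above their LD level in RM, and they parted in the single-cytokine libraries, where IL-6 held more ARPC1B and IL-8 more ARPC1A.

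ARPC5 had 154 reads (53.99 TPM) in LD, 72 (36.51 TPM) with IL-6, 42 (19.77 TPM) with IL-8, 132 (47.82 TPM) with RM and 1 (2.065 TPM) at HD. ARPC5L had 81 reads (59.97 TPM) in LD, 64 (68.99 TPM) with IL-6, 59 (59.06 TPM) with IL-8, 34 (25.46 TPM) with RM and 6 (23.17 TPM) at HD. ARPC5 was lowest at low density in IL-8 and ARPC5L in RM.

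For the comparison with LD, a difference of at least 1 unit of log2(TPM + 1) was counted, over the 21163 genes that reached 1 TPM somewhere among the libraries. Each such count is set beside the share of all genes that passed in the same direction, and beside that share among the genes with at least 50 reads in either library, a range that holds all 9 subunits and that was chosen after the values were seen. Reads were also compared by an exact conditional binomial test against the reads outside RNA5-8S5, with Benjamini-Hochberg adjustment over the 21163 genes. It compares the libraries, not the conditions.

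With IL-6, 0 of 9 subunits passed 1 log2 unit in either direction. The differences ran from −0.55 (ARPC5) to 0.74 (ARPC1B), with a median of 0.06 against 0.00 for all genes. Of all genes tested 9.84% were higher and 7.47% lower, and among the well-counted genes 5.63% were higher and 8.89% lower. By the exact read test, which called 6.97% of genes higher and 6.11% lower, 2 subunits differed. ARPC1B was 1.67-fold higher (95% counting interval 1.49 to 1.88, adjusted p = 2.54e-18 by the exact test), and ARPC1A was at 0.684 of its LD TPM (0.587 to 0.795, adjusted p = 6.49e-05 by the exact test). Both differences lay inside the central 95% of the well-counted genes, from −1.76 to 1.45.

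In IL-8, 4 of 9 subunits were lower by at least 1 log2 unit and 0 higher, beside 16.4% of all genes lower and 7.99% higher, or 22.9% and 10.2% of well-counted genes. They were ARPC5 (−1.41), ARPC3 (−1.33), ACTR3 (−1.07) and ACTR2 (−1.03). ARPC5 TPM in LD was 2.73 times that in IL-8 (1.93 to 3.94), and the factors for ARPC3, ACTR3 and ACTR2 were 2.58 (1.60 to 4.29), 2.21 (1.64 to 3.01) and 2.14 (1.52 to 3.06). All 4 also passed the exact read test, with adjusted p from 3.7e-07 to 0.00118, as did ARPC2, which was lower (−0.36, adjusted p = 0.00241 by the exact test), and ARPC1A, which was higher (0.33, adjusted p = 5.4e-06 by the exact test). That test called 8.36% of genes higher and 13.1% lower. The median of the 9 subunits was −0.36, close to the −0.39 of the well-counted genes. All 9 differences lay inside the central 95% of the well-counted genes, from −2.33 to 2.19. Median-ratio size factors raised the IL-8 differences by about 0.45. Under them the 4 subunits stayed negative (−0.61 to −0.97) with none past 1 unit, and ARPC1B (−0.28), ARPC2 (−0.36) and ARPC5L (−0.02) changed sign to 0.16, 0.09 and 0.42.

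RM held subunits on both sides of LD. ARPC3 (−1.82), ACTR3 (−1.26) and ARPC5L (−1.204) were lower by at least 1 log2 unit and 0 of 9 were higher, beside 20.4% of all genes lower and 6.44% higher, or 30.7% and 11.6% of well-counted genes, so that 3 of 9 is close to the share among well-counted genes. ARPC3 TPM in LD was 3.66 times that in RM (2.24 to 6.24). For ACTR3 the factor was 2.56 (1.93 to 3.44), and for ARPC5L it was 2.36 (1.56 to 3.63). ARPC1A was 1.65-fold higher (1.48 to 1.84) and ARPC1B 1.39-fold higher (1.24 to 1.55). By the exact read test these ARPC1 forms were the 2 subunits called higher (adjusted p = 4.47e-27 for ARPC1A and 1.84e-13 for ARPC1B), and 6 were called lower, namely ACTR2, ACTR3, ARPC2, ARPC3, ARPC4 and ARPC5L, where 7.69% and 18.0% of all genes were called. The median over the subunits was −0.86, against −0.49 for well-counted genes. All 9 differences lay inside the central 95% of the well-counted genes, from −2.67 to 2.67. Median-ratio factors raised the RM differences by about 0.73. ARPC1A (1.45) and ARPC1B (1.204) then passed 1 unit as higher, ARPC3 (−1.11) alone passed as lower, ACTR3 stood at −0.59 and ARPC5L at −0.49, and ARPC2 and ARPC5 changed sign from −0.36 and −0.17 to 0.37 and 0.55. ACTR2 went from −0.88 to −0.19 under these factors.

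In HD, 7 of 9 subunits were lower by at least 1 log2 unit and 0 higher, beside 17.9% of all genes lower and 61.9% higher, or 46.0% and 25.4% of well-counted genes. The median over the subunits was −1.75, where the median of all genes was 1.87 and that of well-counted genes −0.82. All 9 differences lay inside the central 95% of the well-counted genes, from −4.27 to 6.64. ARPC2 TPM in LD was 6.67 times that in HD (5.10 to 8.89) and ARPC1B TPM 8.16 times (4.64 to 15.9). ARPC5 and ARPC3 had 1 read each in HD, and their ratios to LD were 0.0382 (0.000962 to 0.216) and 0.0742 (0.00186 to 0.425). ARPC1A stood at −0.86 and ARPC4 at 0.05, and ARPC4 was at 0.64 with CPM scaling and at −0.38 with median-ratio factors. The exact read test, which leaves out RNA5-8S5, called all 9 lower, ARPC4 included (read rate 0.748 of LD, adjusted p = 0.0246 by the exact test), and of all genes it called 42.0% higher and 19.0% lower. In these bulk libraries less subunit RNA per HT1080 cell and a smaller share of HT1080 RNA cannot be told apart. VIM, the most abundant mesenchymal marker, went from 3676 TPM in LD to 412.9 TPM in HD alongside. The other listed mesenchymal markers moved by smaller factors. FN1 went from 108.2 to 53.44 TPM, MMP14 from 235.5 to 64.27, CD44 from 70.11 to 11.73 and PLAUR from 66.73 to 22.71. S100A4 went from 23.34 to 9.841 TPM, while THY1 went up from 1.809 to 3.562 TPM on few reads.

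**Figure D2:**
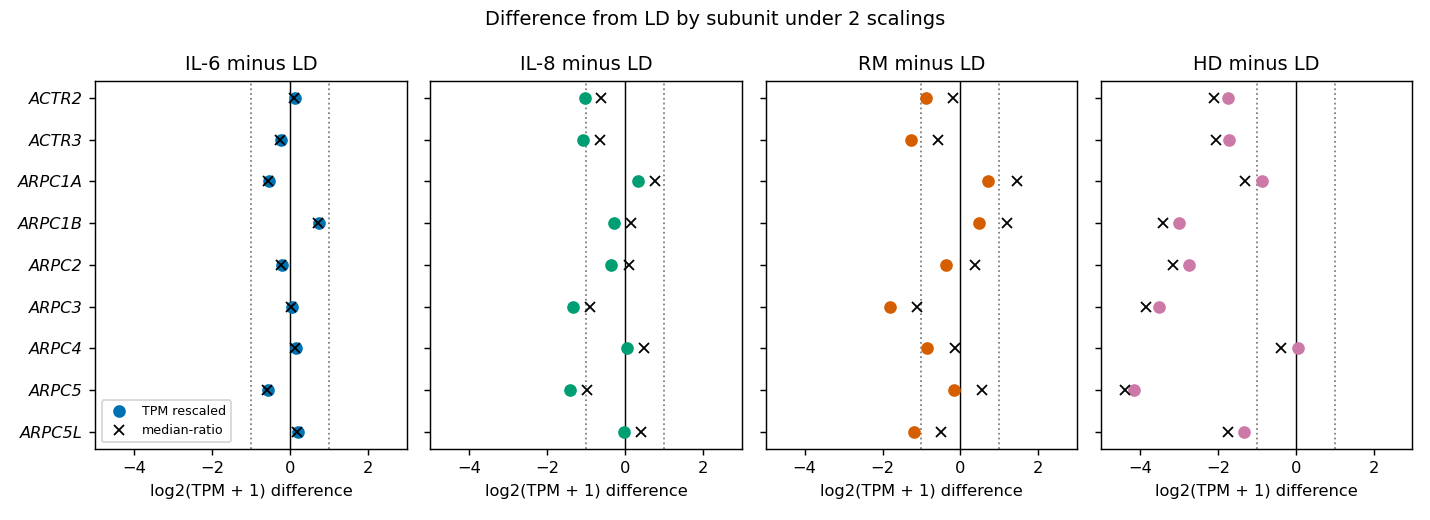
Difference of log2(TPM + 1) from LD for the 9 subunits in each of the other libraries, with coloured points for TPM rescaled to a common total, crosses for median-ratio size factors and dotted lines at 1 log2 unit. In RM the points run from −1.82 (ARPC3) to 0.72 (ARPC1A), and the crosses lie to their right by about the 0.73 that separates the scalings.

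As TPM, the summed level of the complex was close to LD with IL-6 and RM, lower with IL-8 and lowest in HD. It was 1795 TPM in LD, 1806 with IL-6, 1528 with IL-8, 1664 with RM and 550.2 at HD. As reads per 1000000 outside RNA5-8S5 it was 2278 (95% counting interval 2205 to 2352), 2355 (2266 to 2448), 2096 (2012 to 2183), 2362 (2283 to 2443) and 513.7 (449.6 to 584.4). The log2 ratio of summed TPM to LD was 0.01 with IL-6, −0.23 with IL-8, −0.11 with RM and −1.71 at HD, and with median-ratio factors the IL-8 and RM values changed sign to 0.22 and 0.62.

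The balance among the 7 positions of the complex needs no scaling between libraries. An equal share over the positions would be 14.3%, a reference taken from 1 protein at each position. Protein was not measured in these libraries, and RNA shares need not be equal. No library came near it across the positions, although ARPC4 alone did with IL-6 and IL-8. ARPC2 made up 47.1% of the summed TPM in LD, 40.7% with IL-6, 43.1% with IL-8, 39.6% with RM and 23.0% at HD. The ARPC1 position, ARPC1A plus ARPC1B, made up 28.7% in LD, 34.2% with IL-6, 34.7% with IL-8, 46.8% with RM and 30.6% at HD. In RM the ARPC1 position thus exceeded ARPC2, and as a share of reads it was 47.3% (95% exact interval 45.6 to 49.0) against 29.1% (27.7 to 30.6) in LD. ARPC4 held 11.4%, 12.7%, 13.8%, 6.7% and 38.6% of the summed TPM in the same order of libraries, and was the leading position in HD. As a share of reads in HD it was at 37.2% (31.0 to 43.8) against 29.4% (23.6 to 35.8) for ARPC1, and these intervals overlapped.

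The actin-like and ARPC3 positions were the smallest at low density, and their shares were lower in IL-8 and RM than in LD. ARP3 took 1.2% of the summed TPM in LD, 1.0% with IL-6, 0.7% with IL-8 and 0.5% in RM, and ARP2 took 1.3%, 1.4%, 0.7% and 0.8%. ARPC3 took 3.9% in LD, 4.1% with IL-6, 1.8% with IL-8 and 1.2% in RM. In shares of reads, ARPC3 was at 2.1% (1.7 to 2.6) in LD and 0.6% (0.4 to 0.9) in RM, and ARP3 at 4.8% (4.1 to 5.5) and 2.0% (1.6 to 2.5), so that these intervals did not overlap. The ratio of the highest to the lowest position was 38.4 in LD, 39.7 with IL-6, 66.0 with IL-8, 90.6 with RM and 40.7 at HD. The SD of log2 TPM over the positions was 2.04, 2.08, 2.52, 2.64 and 2.42 in that order. IL-8 and RM were therefore the more uneven of the low-density libraries, by a measure with no replicate to set it against. In HD the lowest position, ARPC3, had 1 read, so the HD ratio rests on that read and the HD SD depends on it.

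**Figure D3:**
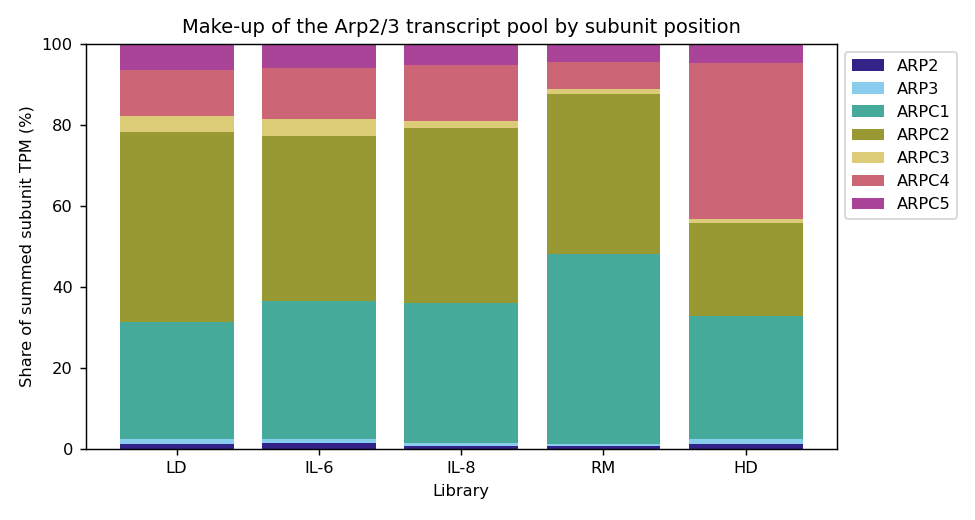
Share of the summed subunit TPM (%) taken by each of the 7 positions of the complex in each library, with ARPC1A and ARPC1B added together and ARPC5 and ARPC5L added together. The ARPC1 block grows from 28.7% in LD to 46.8% in RM, and ARPC4 fills 38.6% in HD, where 231 reads make up the whole bar.

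Paralog use differed between libraries at the ARPC1 and the ARPC5 position. Shares are given of the reads of each pair with 95% exact binomial intervals, and each was compared with LD by a two-sided Fisher's exact test, adjusted over the 8 tests. All 8 comparisons had an adjusted p under 0.05, and the tests again compare libraries and not conditions. In HD, ARPC1B, ARPC5 and ARPC5L lay below the olfactory receptor level, so the HD shares are not read as paralog use.

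ARPC1B, the form known from inherited platelet and immune deficiency, made up 50.7% of 1091 ARPC1 reads in LD (47.7 to 53.7), 71.5% of 889 with IL-6 (68.5 to 74.5), 40.3% of 842 with IL-8 (36.9 to 43.7), 46.4% of 1602 with RM (44.0 to 48.9) and 17.6% of 68 at HD (9.5 to 28.8). IL-6 was thus the library richest in ARPC1B, and IL-8 and HD lay below LD. The HD share rests on 12 ARPC1B reads at 32.81 TPM, below the olfactory receptor level of 39.13 TPM. The adjusted p was 2.65e-20 with IL-6, 1.39e-05 with IL-8, 0.0308 with RM and 2.43e-07 at HD (Fisher's exact test). The RM share was the one nearest to LD, with an interval that overlapped it.

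ARPC5L made up 34.5% of 235 ARPC5 reads in LD (28.4 to 40.9), 47.1% of 136 with IL-6 (38.4 to 55.8), 58.4% of 101 with IL-8 (48.2 to 68.1), 20.5% of 166 with RM (14.6 to 27.4) and 85.7% of 7 at HD (42.1 to 99.6). Both single-cytokine libraries were above LD and the library with both cytokines was below it. The adjusted p was 0.0232, 0.000124, 0.00392 and 0.0127 in that order after LD (Fisher's exact test). Corrected for length, as TPM, the ARPC5L shares were 52.6%, 65.4%, 74.9%, 34.7% and 91.8%. In HD, ARPC5 (1 read) and ARPC5L (6 reads) both lay below the olfactory receptor level.

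**Figure D4:**
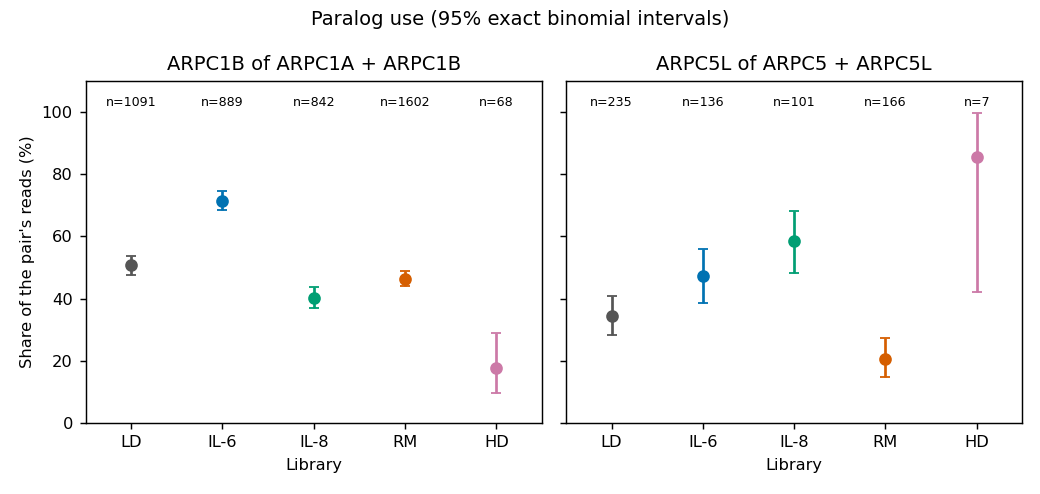
Share of the reads of each paralog pair (%) that fell on ARPC1B and ARPC5L in the 5 libraries, with 95% exact binomial intervals and the number of reads of the pair above each point. ARPC1B is highest in IL-6 at 71.5%, and ARPC5L is lowest in RM at 20.5%.

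The 250 bases before the start of a gene were available from RefSeq on GRCh38.p14 for 8 of the 9 subunits, all but ARPC1B. Printed here are those of the actin-like subunits and ARPC3, which as TPM were below LD in IL-8 and RM, and that of ARPC1A, above LD in both. They were picked by these values, and ARPC5, the subunit furthest below LD in IL-8 (−1.405), is not printed. With median-ratio factors ACTR2 stood at −0.19 in RM. ACTR3 had 3 promoter entries and ARPC2 had 2, and 1 of each was searched. Motifs searched on both strands are in capitals and do not overlap. They were CCAAT, the ETS core CGGAAG, the STAT site TTCNNNGAA and the CArG box of serum response factor.
ACTR2, chr2:65227581-65227830, + strand: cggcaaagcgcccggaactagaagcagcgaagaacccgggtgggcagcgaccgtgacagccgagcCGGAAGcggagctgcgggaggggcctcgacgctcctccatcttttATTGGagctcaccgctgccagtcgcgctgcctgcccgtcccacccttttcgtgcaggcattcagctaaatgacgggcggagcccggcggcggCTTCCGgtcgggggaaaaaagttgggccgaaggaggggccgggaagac
ACTR3, chr2:113889684-113889933, + strand: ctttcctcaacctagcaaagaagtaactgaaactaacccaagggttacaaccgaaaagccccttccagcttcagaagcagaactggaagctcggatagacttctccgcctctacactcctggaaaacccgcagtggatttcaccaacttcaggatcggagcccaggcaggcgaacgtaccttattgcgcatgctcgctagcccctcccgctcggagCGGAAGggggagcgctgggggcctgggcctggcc
ARPC3, chr12:110450338-110450587, − strand: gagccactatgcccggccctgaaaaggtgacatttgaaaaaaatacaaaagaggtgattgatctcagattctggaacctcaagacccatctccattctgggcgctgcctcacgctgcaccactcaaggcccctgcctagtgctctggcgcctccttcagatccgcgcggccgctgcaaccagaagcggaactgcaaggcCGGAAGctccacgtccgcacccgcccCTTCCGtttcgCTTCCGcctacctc
ARPC1A, chr7:99325648-99325897, + strand: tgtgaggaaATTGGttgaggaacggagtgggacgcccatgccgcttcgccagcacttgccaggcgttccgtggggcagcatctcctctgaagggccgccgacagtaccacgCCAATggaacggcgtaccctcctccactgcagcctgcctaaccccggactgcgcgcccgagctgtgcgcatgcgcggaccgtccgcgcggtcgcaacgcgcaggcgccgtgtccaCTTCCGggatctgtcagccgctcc
The ETS core was in 5 of the 8 subunit promoters (ACTR2, ACTR3, ARPC1A, ARPC2 and ARPC3, with 3 copies in ARPC3) and in 16.5% of 35116 promoters of the same length. CCAAT was in 4 of 8 and in 32.0% of all. The STAT site, of interest because IL-6 signals through STAT3, was in 0 of 8 and in 6.6% of all, and the CArG box in 0 of 8 and in 1.2% of all. A match is a run of letters and not a measured binding site. The printed promoters differ in CCAAT, with 1 in ACTR2, 2 in ARPC1A and 0 in ACTR3 and ARPC3.

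The genes that switch the complex on or off were taken from lists in 3 roles. Their differences are on the TPM scale, and median-ratio factors add about 0.45 to those in IL-8 and 0.73 to those in RM, less for genes of few TPM. The counts below stand beside the same shares of all genes as before, higher and lower, which were 9.84% and 7.47% with IL-6, 7.99% and 16.4% with IL-8, 6.44% and 20.4% with RM, and 61.9% and 17.9% at HD, and with lists of 10 to 13 genes they are read as descriptions only. Among the 10 nucleation promoting factors, 2 passed 1 log2 unit upwards and 2 downwards with IL-6, 0 and 2 with IL-8, 1 and 3 with RM, and 3 and 3 at HD. These counts include genes of few reads. Of the factors higher, 1 with IL-6 and 1 at HD had at least 10 reads in either library. HCLS1, a cortactin relative best known from blood cells, had 231, 216, 211, 550 and 8 reads in library order (LD, IL-6, IL-8, RM, then HD) and was higher in RM by 1.26. WASF2, a WAVE family member, had 338, 221, 174, 145 and 16 reads and was lower in RM (−1.13) as well as in HD (−1.83). CTTN, cortactin itself, stood at −0.24 in RM (a value that median-ratio factors bring above 0) and was lower in HD (−2.88). WASF3, which the study followed, had 21, 2, 4, 15 and 4 reads (3.076, 0.4298, 0.7869, 2.279 and 2.61 TPM). It was lower with IL-6 (−1.51) or IL-8 (−1.19) alone and stood at −0.31 with RM and −0.18 at HD, where 4 reads lie below the olfactory receptor level. WAS, the blood-cell member, had 18 reads in LD, 0 in IL-6 and RM, 3 in IL-8 and 2 in HD, and WASF1 had 15, 9, 13, 2 and 2. JMY (14 reads) was higher in IL-6 by 1.87 and WHAMM (46 reads) in HD by 3.95, at 44.87 TPM, just above the olfactory receptor level of 39.13 TPM.

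Among the 13 partners of these factors, 0 passed with IL-6, 1 was higher and 2 lower with IL-8, 0 and 4 with RM, and 4 and 5 at HD. Of those higher at HD, 3 had at least 10 reads in either library. The 4 of 13 lower in RM are close to the 30.7% of well-counted genes, and in HD 61.9% of all genes were higher. BRK1, the smallest member of the WAVE regulatory complex, had 116, 95, 81, 19 and 7 reads and was lower in RM (−2.47). ABI1 (−1.09), CYFIP1 (−1.01) and WIPF1 (−1.42) were the others lower in RM, with WIPF1 at 23 reads in LD and 9 in RM. In IL-8, ABI1 (−1.56) and WIPF2 (−1.14) were lower and WIPF1 (1.02) higher. RAC1, the GTPase that turns on WAVE, had 2744, 1388, 2102, 2531 and 42 reads and stood at −0.44 with IL-6, 0.04 with IL-8 and −0.07 in RM. In HD, RAC1 (−3.48), CDC42 (−2.31), BRK1 (−1.64), BAIAP2 (−1.62) and CYFIP2 (−1.33) were lower, and WIPF3 (3.66), ABI2 (1.90) and WIPF1 (1.74) were higher with at least 10 reads, at 11.65, 21.35 and 23.5 TPM, below the olfactory receptor level of 39.13 TPM.

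Of 12 inhibitors and proteins that take branches apart, 10 were listed and tested (ARPIN and CORO7 were not analysed here). With IL-6, 1 was higher and 1 lower, with IL-8 and with RM 1 and 4, and at HD 4 and 5. Counting only genes with at least 10 reads in either library, 3 were lower in IL-8 and 3 higher at HD. Among well-counted genes 30.7% were lower in RM and 46.0% in HD, a set that leaves out GMFB and CORO1A, among others. CORO1C, a coronin of mesenchymal cells, had 251, 278, 357, 644 and 9 reads and was higher in RM by 1.41. Its relative CORO1B had 210, 166, 122, 57 and 9 reads and was lower in RM (−1.79), so that these coronins lay on opposite sides of LD there. CORO2A had 138, 27, 33, 19 and 49 reads and was lower in IL-6 (−1.52), IL-8 (−1.17) and RM (−2.35) and higher in HD (1.22). CORO2B was higher in IL-6 (2.02, 21 reads) and IL-8 (1.59, 18 reads). CFL2 was lower in IL-8 (−2.12), CORO1A had 13 reads in LD and 0 in IL-8 and RM, and GMFB (11 reads in LD, 2 in RM) was lower in RM (−1.09). CFL1, cofilin, had 4591, 3355, 2758, 3769 and 199 reads and stood at 0.09 with IL-6, −0.31 with IL-8 and −0.24 in RM. In HD, PICK1 (−2.40, 3 reads), CORO1C (−2.21), CFL1 (−1.97), CORO1B (−1.97) and GMFB (−1.53, 0 reads) were lower. GMFG (2.62, 11 reads) and CORO1A (1.08, 6 reads) were higher there. GMFG, at 43.77 TPM, and CORO2A, at 44.43 TPM, lay just above the olfactory receptor level in HD, and CORO1A, at 12.58 TPM, below it. The medians of the 3 lists in RM were −0.28, −0.69 and −0.85, against −0.49 for well-counted genes.

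The genes whose levels ran most like the summed complex were found as the 5 with the smallest Euclidean distance between centred log2(TPM + 1) profiles, over the 5 libraries and among the 3597 genes with at least 10 reads in each. They were RRBP1 (distance 0.136), KDELR1 (0.140), UBB (0.152), COL4A1 (0.155) and RPL26 (0.214). RRBP1, a ribosome-binding protein of the endoplasmic reticulum, was at 572.9, 613.3, 480.4, 566.6 and 168.0 TPM in library order. The profiles share a small dip in IL-8 and the low value in HD, which is the library with the fewest reads, and the likeness rests on 5 points.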

How the data were processed

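HT1080 cells in collagen were sequenced as 50-base single-end reads after oligo-dT selection, phi29 amplification of the cDNA pool and Nextera XT tagmentation, with 1 library in each of 5 conditions. The submitters' processing notes name CASAVA 1.4, FastQC, Bowtie2 2.3.1, RSEM 1.2.25 and the build GRCh37 (hg19). Annotation and settings are not given in the sources used here. Per gene and library, the authors deposited read counts as whole numbers, without normalization, and TPM values. The deposited TPM sums of 934821 to 978521 were rescaled to 1000000.

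Members, gene lists and tests were chosen with earlier results of these data known. Conditions came from the sample labels. Named genes were the 9 subunits, a fixed regulator list (those past 1 log2 unit with at least 10 reads, plus WASF3) and the 5 genes nearest to the summed profile; RAC1, CTTN, CFL1 and CORO1A in HD were named after their values were seen. Intervals are 95% exact Poisson, binomial or conditional binomial intervals. Reads are amplified without molecular identifiers, so intervals, the exact tests and the floor of 3 reads (1.82 to 6.67 reads per 1000000 outside RNA5-8S5) cover counting error only. Alternatives were pseudocounts of 0.1 and 5, CPM, TPM without RNA5-8S5, median-ratio size factors, other filters, a threshold of 2 log2 units and edgeR's likelihood-ratio test with an assumed coefficient of variation of 0.4 or 0.2. The steps were tested on simulated counts. Work was done in R 4.3.3 (edgeR 4.0.16) and Python 3.11.15 (scipy 1.17.1). Sequences came from GRCh38 annotation, and no coordinate of the deposited files was used. The cell-free collagen sample named in the study's design was not analysed here, and 1 gene is not reported here.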

Additional observations from a re-analysis of the deposited data

How the results depend on the processing

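Median-ratio factors turned the log2 ratio of the summed complex to LD from −0.23 to 0.217 in IL-8 and from −0.11 to 0.624 in RM, and gave −2.144 in HD, where CPM gave −1.078 and TPM without RNA5-8S5 gave −1.96. The number of subunits past 1 log2 unit in IL-8 (4) was 2 with a pseudocount of 5 and 0 with median-ratio factors, a threshold of 2 log2 units or edgeR at either assumed coefficient of variation, where 0.4 and 0.2 stand in for a spread that was not measured. In RM (3) it was 0 with the higher threshold, 0 with edgeR at 0.4 and 1, ARPC1A as higher, with edgeR at 0.2. In HD (7) it was 4 with the higher threshold. The cause was not tested. In RM, median-ratio factors also gave 3, but as 2 higher (ARPC1A, ARPC1B) and 1 lower (ARPC3) in place of 0 higher and 3 lower. The other alternatives gave counts of 0 with IL-6, 4 with IL-8, 2 to 3 with RM and 6 to 9 at HD, with all called subunits lower. The summed level with IL-6, 0.009, lay between −0.049 and 0.045 and so on either side of 0. Depth limits HD most, with 231 subunit reads in all. No replicate could be left out. No paired analysis was possible because each condition is a single library.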
